A study of Mus musculus with 8 samples.

Results

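Phase II conjugating enzymes make foreign compounds, bilirubin, steroids and bile acids water soluble by attaching a sugar, a sulfate or glutathione to them. Their transcripts were followed in mouse liver after delivery of a hairpin against Dnajb9 or against Rictor. The members are all rows of the count tables whose symbols belong to the UDP-glucuronosyltransferases (Ugt1a, Ugt2 and Ugt3), the cytosolic sulfotransferases (Sult), the cytosolic glutathione transferases (Gst of the alpha, kappa, mu, omega, pi, theta and zeta classes) or the microsomal glutathione transferases (Mgst), with pseudogenes left out. They are 62 of 24062 gene entries. Of these, 46 had enough counts to be tested and 16 did not.

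All mice were lean C57BL/6 and received 0.1 OD of an adenovirus, and their livers were taken 1 week later after 6 h without food. The 3-month-old mice carried either a virus with a short hairpin RNA against Dnajb9 (shDnajb9), the gene of ERdj4, a co-chaperone of the endoplasmic reticulum, or the control virus lacZ1. The 4-month-old mice carried either a hairpin virus against Rictor (shRictor), a subunit that defines mTOR complex 2, or the control virus lacZ2. Each group has 2 libraries of ribosome-depleted total RNA, so n = 2 for every group value. The sex of the mice, whether both libraries of each group stand for different animals, and whether the control virus expresses lacZ or a hairpin against it are not stated in the labels. Every p-value therefore measures only the spread between these libraries. Because the tissue was bulk liver, fewer cells of a type and less RNA per cell cannot be told apart.

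Glucuronidation takes place inside the endoplasmic reticulum with UDP-glucuronate as donor, sulfation in the cytosol with the activated sulfate PAPS, and glutathione conjugation in the cytosol and at membranes. In mouse liver these enzymes are mainly products of hepatocytes, and many are controlled by xenobiotic sensors. The factor NRF2 induces several alpha and mu class glutathione transferases when electrophiles or oxidants accumulate, and CAR and PXR induce Ugt, Sult and Gst genes in response to drugs. Several members also differ between male and female mice because the pulse pattern of growth hormone differs between the sexes.

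Gene counts totalled 6426164 to 11383532 per library. Within a group, the 2 libraries varied beyond counting noise (chi-square over its degrees of freedom, 15.1 to 43.0). The share of reads that aligned to more than 1 place was 41.3% and 42.0% for the shDnajb9 libraries, against 22.9% and 24.9% for lacZ1, and 32.7% and 26.7% for the shRictor libraries, against 24.6% and 24.2% for lacZ2. Replicate 1 of shDnajb9 and replicate 1 of lacZ2 stood apart by their share of Rpph1 RNA (4.70% and 4.26% of gene counts). The targeted transcripts did not pass the test in their own contrast. Dnajb9 had 22.0 and 20.3 CPM in shDnajb9, against 30.6 and 38.0 CPM in lacZ1 (adjusted p = 0.056, edgeR), and Rictor 40.1 and 42.0 CPM in shRictor, against 52.3 and 65.2 CPM in lacZ2 (adjusted p = 0.231). Rictor had 33.3 and 63.4 CPM in shDnajb9, so that the lowest of the 8 libraries was not one with the Rictor hairpin. The hepatocyte marker Alb, for serum albumin, was abundant in every library, at 22417 and 25506 CPM in shDnajb9, against 26249 and 35452.5 CPM in lacZ1 livers, and 26541 and 36972.5 CPM in shRictor, against 12022 and 28032 CPM in lacZ2. CPM are counts divided by the TMM-scaled library size and given on the usual CPM scale.

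The glutathione transferases split in both contrasts, with some alpha and mu members and the microsomal Mgst3 lower and another set higher. Of the 21 tested, 7 were called higher and 6 lower in shDnajb9, and 3 higher and 7 lower in shRictor. The Ugt and Sult members called by edgeR with TMM scaling were all higher. By other settings Sult1e1 was called lower in shRictor (DESeq2 and the replicate block) and Ugt1a7c lower in shDnajb9 (total-count scaling). In shDnajb9, 18 of the 46 tested members were higher and 6 lower than in lacZ1 at an adjusted p under 0.05 (edgeR quasi-likelihood test, Benjamini-Hochberg over 13767 genes). Of all genes tested, 11.6% were higher and 12.6% lower in that contrast, so members were called lower about as often as all genes. In shRictor, 12 members were higher and 7 lower than in lacZ2, against 7.31% and 10.9% of all genes. The members' median log2 fold change was 0.61 in shDnajb9 and 0.60 in shRictor, while that of all tested genes was -0.05 and -0.02. Both libraries of shDnajb9 lay above both of lacZ1 for 26 members (56.5%) and below for 12 (26.1%), where 32.4% and 35.1% of all genes did so. For shRictor against lacZ2 the numbers were 23 (50%) and 12 (26.1%), against 28.8% and 31.6% of all genes.

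The higher calls depended more on single libraries and on scaling than the lower calls. The same held for all genes, so this was not particular to the members. Leaving out a library leaves 1 in its group and changes the spread used in every test, so calls can be lost or gained. All called members kept the sign of their change when any 1 library was left out. Without lacZ1 replicate 1, 15 of the 18 higher calls in shDnajb9 were lost, without shDnajb9 replicate 1 10 were lost, and without lacZ1 replicate 2 8 were lost. In shRictor, 6 of the 12 higher calls were lost without lacZ2 replicate 1 and 6 without shRictor replicate 1. Calls that held without any single library were those of Sult1b1, Sult5a1 and Ugt2b38 (higher) and Gsta1, Gstm1 and Gstm3 (lower) in shDnajb9. In shRictor they were those of Sult1a1, Sult1b1, Sult5a1, Ugt2a3 and Ugt2b38 (higher) and Gsta1, Gstm2, Gstm3 and Mgst3 (lower). When libraries were scaled by their total count alone, the median of all genes was -0.46 in shDnajb9 and -0.42 in shRictor and that of the members 0.18 and 0.22. The split was then 10 higher and 8 lower in shDnajb9 and 9 higher and 8 lower in shRictor. Of all 13767 genes, 610 were then higher and 3354 lower in shDnajb9, and 436 higher and 2810 lower in shRictor.

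**Figure D1:**
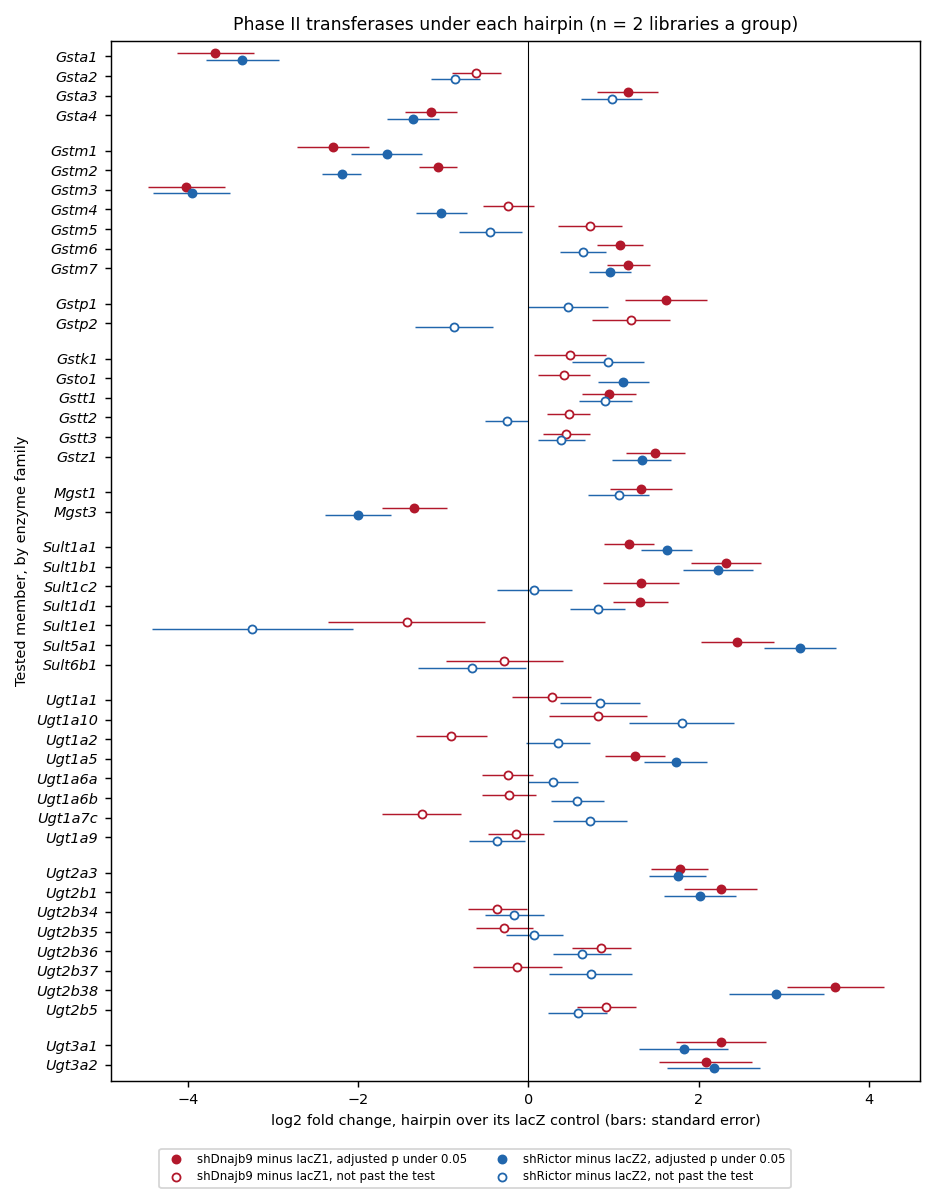
Log2 fold change of each of the 46 tested members over its own lacZ control, with its standard error, by enzyme family (red, shDnajb9 over lacZ1; blue, shRictor over lacZ2; filled points passed the test at an adjusted p under 0.05). Gsta1, Gstm1, Gstm3 and Mgst3 lie to the left under both hairpins, and the called Ugt and Sult members all lie to the right.

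Per kb of annotated exon not overlapped by another gene, Gstm1 was the most abundant member in both control groups. This length merges all annotated exons of a gene and differs from that of 1 transcript. Gsta3 was divided by 4344 bases and Gsta4 by 1266, so the ranks depend on these lengths. The level of Gstm1 was 535 ± 44.3 CPM per kb of exon in shDnajb9, against 2632 ± 135 in lacZ1 (SD, n = 2), and 684 ± 275 in shRictor, against 2169 ± 304 in lacZ2. Gstp1 ranked first in both hairpin groups, at 2100.2 ± 1165 CPM per kb in shDnajb9 and 779 ± 200.3 in shRictor, against 684 ± 123 in lacZ1 and 565 ± 226 in lacZ2. In shRictor the levels of Gstp1 and Gstm1 did not differ beyond their spread. Gstm3 ranked second of 46 in lacZ1 and lacZ2, but 22 in shDnajb9 and 24 in shRictor. Of the summed level of the 21 tested glutathione transferases, Gstm1 accounted for 9.21% and 16.3% in shDnajb9, against 52.0% and 47.8% in lacZ1. The same share was 16.8% and 30.6% in shRictor, against 44.2% and 53.7% in lacZ2. Gstp1 took 53.5% and 36.8% in shDnajb9, against 11.4% and 14.5% in lacZ1, and 31.5% and 22.2% in shRictor, against 16.4% and 9.11% in lacZ2. The sum itself was 5461 and 3469.6 CPM per kb in shDnajb9, against 5248 and 5305 in lacZ1, and 2923 and 2868 in shRictor, against 4417 and 4438 in lacZ2. The shDnajb9 libraries thus lay on both sides of lacZ1, while both shRictor libraries lay below lacZ2.

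**Figure D2:**
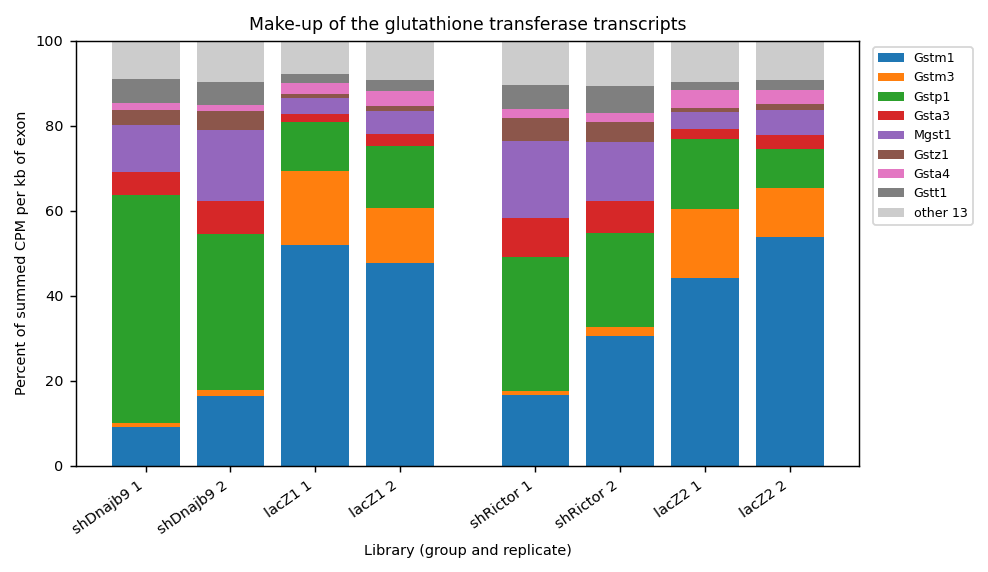
Share of each glutathione transferase in the summed CPM per kb of exon of the 21 tested ones, 1 bar a library. The Gstm1 and Gstm3 blocks, at 47.8% to 52.0% and 12.9% to 17.5% in lacZ1, are reduced to 9.21% to 16.3% and 0.849% to 1.51% in shDnajb9.

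The promoters of a few of these genes are shown because alpha and mu class members moved in opposite directions, and NRF2 acts through a short antioxidant response element. Windows from 250 bases before to 50 after the start were available from RefSeq (GRCm38.p6) for 54 of the 62 members, 65 windows in all, and were searched on both strands for the core TGACNNNGC. The stretches below run 5′ to 3′ along the gene, with a core in capitals where there is one. Those of the first 4 genes end before the annotated transcript. Gstm1 has another window, from a start further downstream (chr3:108017769-108018068), which held no core and is not shown. The first 3 genes were called lower under both hairpins, and Gsta3 was called higher in shDnajb9 only (adjusted p = 0.0325 in shDnajb9 and 0.0771 in shRictor).
Gstm1, chr3:108017974-108018223, minus strand: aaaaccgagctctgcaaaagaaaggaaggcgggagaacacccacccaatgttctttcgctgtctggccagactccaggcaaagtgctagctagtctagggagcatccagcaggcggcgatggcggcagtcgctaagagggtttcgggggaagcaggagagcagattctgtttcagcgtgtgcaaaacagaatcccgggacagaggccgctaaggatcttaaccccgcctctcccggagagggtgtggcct
Gstm3, chr3:107969284-107969424, minus strand: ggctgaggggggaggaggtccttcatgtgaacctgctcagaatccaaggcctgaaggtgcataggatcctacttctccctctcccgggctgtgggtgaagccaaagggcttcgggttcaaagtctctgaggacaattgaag
Gsta1, chr9:78230419-78230655, plus strand: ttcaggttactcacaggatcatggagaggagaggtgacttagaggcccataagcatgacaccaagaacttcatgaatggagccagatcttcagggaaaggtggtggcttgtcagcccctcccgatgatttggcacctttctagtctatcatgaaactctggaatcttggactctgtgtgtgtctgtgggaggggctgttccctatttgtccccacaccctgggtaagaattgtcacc
Gsta3, chr1:21240335-21240584, plus strand: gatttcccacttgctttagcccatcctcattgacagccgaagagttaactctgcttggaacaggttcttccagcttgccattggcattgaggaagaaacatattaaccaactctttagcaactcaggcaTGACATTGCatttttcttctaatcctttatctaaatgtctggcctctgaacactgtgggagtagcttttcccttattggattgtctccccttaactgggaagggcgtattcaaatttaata
The windows of 3 more members held a core, shown with the bases on either side of it. By the GENCODE gene bounds, the Gstm7 and Mgst1 stretches lie inside the annotated gene, and the Gstm5 stretch spans its start.
Gstm7, chr3:107931724-107931753, minus strand: tctgaagaccTGACAAAGCgaagccaatcc
Mgst1, chr6:138140461-138140490, plus strand: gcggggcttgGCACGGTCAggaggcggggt
Gstm5, chr3:107895802-107895831, plus strand: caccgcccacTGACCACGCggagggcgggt
The core occurred in 4 of the 65 member windows, and in 12.4% of all 32851 windows. Among members called lower, it was in the window of 0 of 5 with a window in shDnajb9 and 0 of 6 in shRictor. Among those called higher it was in 3 of 17 in shDnajb9 (Gsta3, Gstm7 and Mgst1) and 1 of 11 in shRictor (Gstm7). A match is a run of letters only, and its absence here says nothing of elements outside these windows.

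The 7 mu class genes lie together on chromosome 3 (GRCm38, 107895821 to 108044894), and neighbours in this cluster moved in opposite directions. Gstm1 (chromosome 3, 108012255 to 108017973, minus strand) is the main mu class enzyme of mouse liver. It had 741 and 834 CPM in shDnajb9 livers, against 4017 and 3736 CPM in lacZ1 livers, and 722 and 1294 CPM in shRictor livers, against 2878 and 3512 CPM in lacZ2 livers. All 4 hairpin libraries lay far below all 4 controls, and the level was 4.92-fold lower in shDnajb9 (log2 fold change -2.30, SE 0.43, adjusted p = 0.00271) and 3.17-fold lower in shRictor (log2 fold change -1.66, SE 0.42, adjusted p = 0.0152). The shRictor call was lost without shRictor replicate 1 (adjusted p = 0.179). Gstm3 (chromosome 3, 107963696 to 107969283, minus strand) showed the largest fall of any tested member in both contrasts, with 60.8 and 68.6 CPM in shDnajb9 livers, against 1204 and 899 CPM in lacZ1 livers, and 30.5 and 73.3 CPM in shRictor livers, against 937 and 678 CPM in lacZ2 livers. The groups did not come near each other, with falls of 16.2-fold in shDnajb9 (log2 fold change -4.02, SE 0.45, adjusted p = 0.00013) and 15.5-fold in shRictor (log2 fold change -3.96, SE 0.45, adjusted p = 0.000159). Of its 50-base stretches 28.8% also occur in another gene, so part of its reads may have been discarded or shared.

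Gstm2 was at 51.4 and 46.6 CPM in shDnajb9 livers, against 108 and 95.3 CPM in lacZ1 livers, and at 21.5 and 24.1 CPM in shRictor livers, against 111 and 97.6 CPM in lacZ2 livers. It was lower in both contrasts, by 2.08-fold in shDnajb9 (adjusted p = 0.00566) and 4.58-fold in shRictor (adjusted p = 0.000119). The difference between these changes was -1.14 on the log2 scale (unadjusted p = 0.00324, adjusted p = 0.373) and did not pass. Without lacZ1 replicate 1 the shDnajb9 call was lost (adjusted p = 0.0599). Gstm4 overlapped between shDnajb9 and lacZ1 but fell in shRictor (log2 fold change -1.02, SE 0.30, adjusted p = 0.0326), a call lost without any 1 of the 4 libraries compared. Gstm7 went the other way, with 128 and 90.7 CPM in shDnajb9 livers, against 41.9 and 55 CPM in lacZ1 livers, and 73.6 and 68.3 CPM in shRictor livers, against 34.5 and 38.5 CPM in lacZ2 livers. It rose 2.26-fold in shDnajb9 (adjusted p = 0.00571) and 1.94-fold in shRictor (adjusted p = 0.0183). Gstm6 rose in shDnajb9 (log2 fold change 1.08, SE 0.27, adjusted p = 0.0139), and in shRictor, where both libraries also lay above lacZ2, it had 0.64 (adjusted p = 0.121). The call of Gstm7 was lost without lacZ1 replicate 1 and, in shRictor, without any 1 of the 4 libraries compared, with the replicate block (adjusted p = 0.0536) and under total-count scaling (adjusted p = 0.0877). Gstm6 lost its call without either lacZ1 library, without shDnajb9 replicate 1 and under total-count scaling. Gstm5 had 3.10 to 6.75 CPM in all libraries and passed in neither contrast.

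The alpha class also split, although its members are spread over 2 chromosomes. Gsta1 (chromosome 9, 78230656 to 78242684, plus strand), an inducible enzyme, had 6.5 and 3.43 CPM in shDnajb9 livers, against 51.1 and 71 CPM in lacZ1 livers, and 2.47 and 7.53 CPM in shRictor livers, against 59.4 and 45.4 CPM in lacZ2 livers. Every hairpin library lay at least several-fold below every control, with falls of 12.8-fold in shDnajb9 (log2 fold change -3.68, SE 0.45, adjusted p = 0.000218) and 10.3-fold in shRictor (log2 fold change -3.36, SE 0.43, adjusted p = 0.000356). Of its 50-base stretches 90.5% occur in another gene, mostly the gene model Gm3776, so that its level is uncertain. Gsta4, on the same cluster, encodes the enzyme that conjugates the lipid peroxidation product hydroxynonenal and shares no stretch with another gene. It had 118 and 66.1 CPM in shDnajb9 livers, against 177 and 229 CPM in lacZ1 livers, and 81.5 and 78.9 CPM in shRictor livers, against 228 and 182 CPM in lacZ2 livers. The groups did not overlap in either contrast (shDnajb9 -1.15, adjusted p = 0.0185; shRictor -1.36, adjusted p = 0.00895). The call was lost without lacZ1 replicate 2 or shDnajb9 replicate 2 in shDnajb9, and without lacZ2 replicate 1 or either shRictor library in shRictor.

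Gsta2, whose sequence is 49.8% shared, had log2 fold changes of -0.61 in shDnajb9 (adjusted p = 0.131) and -0.86 in shRictor (adjusted p = 0.0536). Under total-count scaling it was called lower in both (adjusted p = 0.0172 in shDnajb9 and 0.00781 in shRictor). Gsta3 (chromosome 1, 21240589 to 21265661, plus strand) had the most CPM of the alpha class in every library, and the most CPM per kb in both hairpin groups. It had 1309.9 and 1164 CPM in shDnajb9 livers, against 458 and 644 CPM in lacZ1 livers, and 1171 and 945 CPM in shRictor livers, against 442 and 634 CPM in lacZ2 livers. All hairpin libraries lay above all controls. The test was passed in shDnajb9 (log2 fold change 1.17, SE 0.36, adjusted p = 0.0325) and missed in shRictor (log2 fold change 0.98, SE 0.36, adjusted p = 0.0771, 95% interval 0.20 to 1.75), where DESeq2 called it (adjusted p = 0.00631). The shDnajb9 call was lost with the replicate block (adjusted p = 0.0805), without either lacZ1 library, without shDnajb9 replicate 1, without shRictor replicate 2 and under total-count scaling.

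The pi class is made by the neighbouring genes Gstp1 and Gstp2 on chromosome 19, which share 33.7% and 54.3% of their 50-base stretches with other genes, mostly each other. Gstp1 is the major pi class enzyme of mouse liver and is higher in males. It had 4526 and 1976 CPM in shDnajb9 livers, against 925 and 1194 CPM in lacZ1 livers, and 1426 and 987 CPM in shRictor livers, against 1122 and 626 CPM in lacZ2 livers. The 2 shDnajb9 libraries differed more than 2-fold from each other but both lay above lacZ1 (log2 fold change 1.62, SE 0.48, adjusted p = 0.0279). In shRictor the groups overlapped (log2 fold change 0.47, SE 0.47, adjusted p = 0.544, 95% interval -0.54 to 1.47). The shDnajb9 call was lost without shDnajb9 replicate 1 or either lacZ1 library and under total-count scaling, and missed with the replicate block (adjusted p = 0.068). Gstp2 was low, at 35.2 and 16.8 CPM in shDnajb9 livers, against 16 and 5.96 CPM in lacZ1 livers, and 7.53 and 10.9 CPM in shRictor livers, against 22 and 12.1 CPM in lacZ2 livers. Its libraries lay above the control in shDnajb9 (adjusted p = 0.0726) and below it in shRictor (adjusted p = 0.218), without a call by edgeR in either. In shDnajb9 it was called higher by DESeq2 (adjusted p = 0.0313) and with the replicate block (adjusted p = 0.0286). The difference between the 2 changes was -2.08 on the log2 scale (SE 0.65, unadjusted p = 0.00728, adjusted p = 0.404).

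The microsomal enzymes sit in the endoplasmic reticulum and the outer mitochondrial membrane and also reduce lipid peroxides. Mgst1 had 1209 and 1159 CPM in shDnajb9 livers, against 381 and 570.1 CPM in lacZ1 livers, and 1061 and 793 CPM in shRictor livers, against 366 and 524 CPM in lacZ2 livers. Both contrasts were without overlap, and the test was passed in shDnajb9 (log2 fold change 1.32, SE 0.36, adjusted p = 0.0211) and not in shRictor (adjusted p = 0.0594), where DESeq2 called it (adjusted p = 0.00398). The shDnajb9 call was lost with the replicate block (adjusted p = 0.0538) and without lacZ1 replicate 1 or shDnajb9 replicate 1. Mgst3 (chromosome 1, 167371966 to 167393841, minus strand) had 33.5 and 13.7 CPM in shDnajb9 livers, against 49.8 and 67.6 CPM in lacZ1 livers, and 19.3 and 14.8 CPM in shRictor livers, against 86.2 and 50.9 CPM in lacZ2 livers. It fell in shDnajb9 (log2 fold change -1.34, SE 0.38, adjusted p = 0.0256) and in shRictor (log2 fold change -2.01, SE 0.39, adjusted p = 0.00392). In shDnajb9 the call was lost without either lacZ1 library or shDnajb9 replicate 2. Mgst2 was not tested, with 0 and 0 counts in shDnajb9, against 6 and 6 in lacZ1, and 1 and 0 in shRictor, against 2 and 3 in lacZ2.

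In the other cytosolic classes no member was called lower by edgeR, and Gstz1 was higher under both hairpins. Gstz1, the zeta class enzyme that isomerises maleylacetoacetate in tyrosine breakdown, had 888 and 692 CPM in shDnajb9 livers, against 243 and 319 CPM in lacZ1 livers, and 702 and 596 CPM in shRictor livers, against 203 and 313 CPM in lacZ2 livers. Every hairpin library lay well above every control (shDnajb9 1.49, adjusted p = 0.00905; shRictor 1.33, adjusted p = 0.0179). Gstt1, a theta class enzyme that acts on small haloalkanes, had 453 and 280.3 CPM in shDnajb9 livers, against 162 and 218 CPM in lacZ1 livers, and 254 and 276 CPM in shRictor livers, against 127 and 156 CPM in lacZ2 livers, and passed in shDnajb9 (adjusted p = 0.0435) but not in shRictor (adjusted p = 0.0632), where DESeq2 called it (adjusted p = 0.018). Gsto1, the omega class enzyme that reduces dehydroascorbate, had 115 and 67.3 CPM in shRictor livers, against 34.2 and 49.9 CPM in lacZ2 livers, and passed there (log2 fold change 1.11, SE 0.30, adjusted p = 0.0226). In shDnajb9 its log2 fold change was 0.42 (adjusted p = 0.321). Without lacZ1 replicate 1 or shDnajb9 replicate 1 the shDnajb9 calls of Gstz1 and Gstt1 were lost, and Gstt1 also lost its call without lacZ1 replicate 2 or either shRictor library, with the replicate block (adjusted p = 0.107) and under total-count scaling. In shRictor, Gstz1 lost its call without lacZ2 replicate 1 or either shRictor library, and Gsto1 without lacZ2 replicate 1 or shRictor replicate 1, with the replicate block (adjusted p = 0.0615) and under total-count scaling. Gsto2 and Gstt4 were not tested, with at most 3 counts in a library. Gstk1 of mitochondria and peroxisomes, Gstt2 and Gstt3 passed in neither contrast, with log2 fold changes of 0.45 to 0.49 in shDnajb9 and -0.26 to 0.93 in shRictor. Gstk1 in lacZ2 rested on unequal libraries, at 15.9 CPM in replicate 1 and 56.5 CPM in replicate 2.

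**Figure D3:**
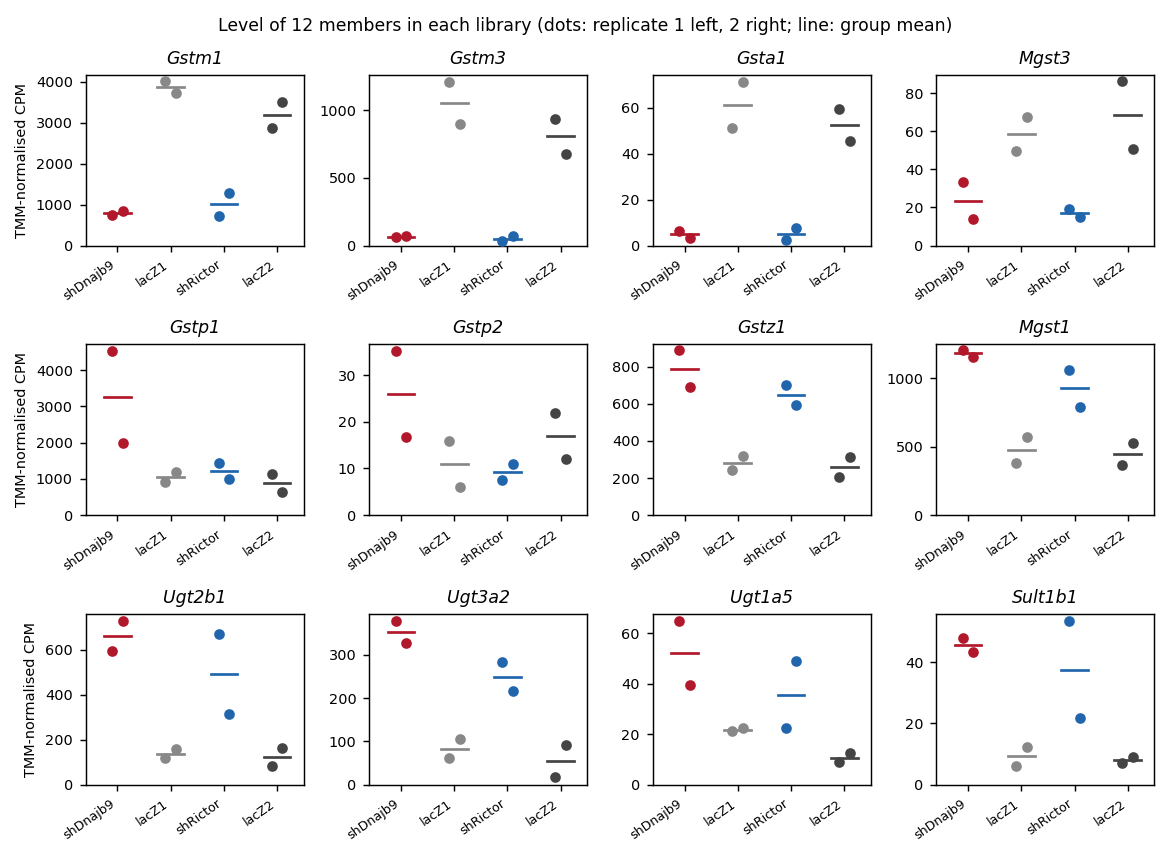
TMM-normalised CPM of 12 members in each of the 8 libraries (dots, replicate 1 left and 2 right; line, group mean; each axis starts at 0). Gstm1, Gstm3, Gsta1 and Mgst3 are lower in shDnajb9 and shRictor than in lacZ1 and lacZ2, and Gstz1, Mgst1, Ugt2b1, Ugt3a2 and Sult1b1 are higher.

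The Ugt1a enzymes are read from 1 locus on chromosome 1 (88055388 to 88220002), in which each member has its own first exon and all share the remaining exons. Only 17.3% to 49.7% of a member's exon sequence is its own, and reads in the shared exons cannot be assigned to 1 member. Of the 8 members, edgeR called 1 higher in each contrast and none lower. Ugt1a5 had 65 and 39.4 CPM in shDnajb9 livers, against 21.1 and 22.5 CPM in lacZ1 livers, and 22.3 and 48.9 CPM in shRictor livers, against 9.07 and 12.4 CPM in lacZ2 livers, with no overlap (shDnajb9 1.25, adjusted p = 0.0243; shRictor 1.73, adjusted p = 0.00644). Its call was lost without either lacZ1 library or shDnajb9 replicate 1 and under total-count scaling in shDnajb9, and without lacZ2 replicate 1 or shRictor replicate 2 in shRictor. Ugt1a1, the enzyme that conjugates bilirubin, had 104 and 98.5 CPM in shDnajb9 livers, against 74 and 94.2 CPM in lacZ1 livers, and 137 and 148 CPM in shRictor livers, against 29.9 and 129 CPM in lacZ2 livers. Replicate 1 of lacZ2 was far below the other 7 libraries, and neither contrast passed (adjusted p = 0.694 in shDnajb9 and 0.241 in shRictor).

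Ugt1a6b, which conjugates planar phenols, lay below lacZ1 in both shDnajb9 libraries (-0.23, 95% interval -0.91 to 0.46) and overlapped in shRictor (0.57, 95% interval -0.11 to 1.25). Ugt1a9 had log2 fold changes of -0.14 (95% interval -0.85 to 0.56) and -0.37 (95% interval -1.07 to 0.34). The low member Ugt1a7c had 3.56 and 4.57 CPM in shDnajb9 livers, against 11.4 and 8.23 CPM in lacZ1 livers, and 4.24 and 13.9 CPM in shRictor livers, against 5.12 and 5.92 CPM in lacZ2 livers. It was lower in shDnajb9 without passing (adjusted p = 0.067), except under total-count scaling (adjusted p = 0.0339), and in shRictor only replicate 2 was high. The 2 changes differed by 1.98 on the log2 scale (unadjusted p = 0.00867, adjusted p = 0.407). Ugt1a6a had -0.24 and 0.28. Ugt1a2 and Ugt1a10, at 0.349 to 8.71 CPM, passed in neither contrast.

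The Ugt2 genes form a cluster on chromosome 5 (86889767 to 87490871) and conjugate steroids, bile acids and drugs. Of the 8 tested, 3 rose in both contrasts and none fell. Ugt2b1 (chromosome 5, 86916638 to 86926530, minus strand), which shares no stretch with another gene, had 594 and 729 CPM in shDnajb9 livers, against 119 and 158 CPM in lacZ1 livers, and 669.6 and 314 CPM in shRictor livers, against 81.8 and 161 CPM in lacZ2 livers. Every hairpin library was higher than every control, by 4.78-fold in shDnajb9 (log2 fold change 2.26, SE 0.43, adjusted p = 0.00313) and 4.05-fold in shRictor (log2 fold change 2.02, SE 0.43, adjusted p = 0.00604). Ugt2a3 had 285 and 262 CPM in shDnajb9 livers, against 65.1 and 94.8 CPM in lacZ1 livers, and 235 and 141 CPM in shRictor livers, against 42.8 and 68.5 CPM in lacZ2 livers. Its changes were 1.78 in shDnajb9 (SE 0.34, adjusted p = 0.00301) and 1.75 in shRictor (SE 0.34, adjusted p = 0.00344). Without lacZ1 replicate 1 the shDnajb9 calls of both missed the threshold (adjusted p = 0.0536 and 0.0572), and without lacZ2 replicate 1 or shRictor replicate 1 the shRictor call of Ugt2b1 did so.

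Ugt2b38 was the strongest riser in shDnajb9 from a low level, with 8.8 and 18 CPM in shDnajb9 livers, against 1.15 and 1.07 CPM in lacZ1 livers, and 10.2 and 9.1 CPM in shRictor livers, against 0.233 and 2.12 CPM in lacZ2 livers. The groups were well apart (shDnajb9 3.60, adjusted p = 0.00112; shRictor 2.91, adjusted p = 0.00359). It shares 37.4% of its stretches with other genes, mostly the far more abundant Ugt2b5. Ugt2b5, Ugt2b36, Ugt2b35 and Ugt2b34, also abundant, did not pass edgeR's test in either contrast, unlike the abundant Ugt2b1. DESeq2 called Ugt2b5 (adjusted p = 0.0104) and Ugt2b36 (adjusted p = 0.0223) higher in shDnajb9. Ugt2b5 had log2 fold changes of 0.92 (adjusted p = 0.0706) and 0.58 (adjusted p = 0.28), Ugt2b36 0.86 and 0.63, Ugt2b35 -0.28 and 0.07, and Ugt2b34 -0.37 and -0.16, in shDnajb9 and shRictor in that order. Ugt2b37 had -0.13 (adjusted p = 0.875) and 0.73 (adjusted p = 0.34). Ugt2a1 and Ugt2a2 had at most 1 count in any library.

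Both Ugt3 genes, neighbours on chromosome 15, rose in both contrasts. The human enzymes of this family use sugars other than glucuronate. Ugt3a2 had 377 and 326 CPM in shDnajb9 livers, against 61.6 and 105 CPM in lacZ1 livers, and 282 and 217 CPM in shRictor livers, against 18.5 and 91.4 CPM in lacZ2 livers. All hairpin libraries were more than 2 times any control of their contrast (shDnajb9 2.08, adjusted p = 0.0171; shRictor 2.18, adjusted p = 0.0162). Ugt3a1 had 95.4 and 60.3 CPM in shDnajb9 livers, against 12.9 and 19.7 CPM in lacZ1 livers, and 64 and 46.2 CPM in shRictor livers, against 5 and 25.6 CPM in lacZ2 livers (shDnajb9 2.26, adjusted p = 0.0102; shRictor 1.83, adjusted p = 0.0295). In lacZ2 both rested on unequal libraries, with replicate 1 several times below replicate 2. In shDnajb9 both calls were lost without either lacZ1 library or shDnajb9 replicate 1, and that of Ugt3a2 also without shDnajb9 replicate 2. In shRictor, Ugt3a1 lost its call without any 1 library other than lacZ2 replicate 2, under total-count scaling (adjusted p = 0.0603), with the replicate block (adjusted p = 0.0594) and by DESeq2 (adjusted p = 0.104), and Ugt3a2 lost it without either shDnajb9 library or shRictor replicate 1.

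Of the sulfotransferases, 7 of 18 could be tested, and with edgeR 5 of them rose in shDnajb9 and 3 in shRictor, with none called lower. Sult1b1, which sulfates phenols and thyroid hormones, had 47.8 and 43.5 CPM in shDnajb9 livers, against 6.21 and 12.3 CPM in lacZ1 livers, and 53.6 and 21.7 CPM in shRictor livers, against 6.98 and 8.97 CPM in lacZ2 livers. Both libraries lay above both controls in each contrast, with changes of 2.32 in shDnajb9 (SE 0.41, adjusted p = 0.00227) and 2.23 in shRictor (SE 0.41, adjusted p = 0.00298). Sult1a1, the main phenol sulfotransferase, had 117 and 209 CPM in shDnajb9 livers, against 61.3 and 83.1 CPM in lacZ1 livers, and 125 and 120.2 CPM in shRictor livers, against 40.2 and 39.4 CPM in lacZ2 livers (shDnajb9 1.18, adjusted p = 0.0128; shRictor 1.62, adjusted p = 0.00258). In shDnajb9 the call of Sult1a1 was lost without lacZ1 replicate 1 or shDnajb9 replicate 2 and under total-count scaling.

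Sult1d1, which acts on catecholamines in the mouse, had 205 and 275 CPM in shDnajb9 livers, against 70.7 and 123 CPM in lacZ1 livers, and 180.0 and 128 CPM in shRictor livers, against 99.6 and 75.8 CPM in lacZ2 livers. It passed in shDnajb9 (log2 fold change 1.31, SE 0.32, adjusted p = 0.0126), except without lacZ1 replicate 1 and under total-count scaling, and not in shRictor (adjusted p = 0.0992). Sult5a1 was low in the controls, with 7.97 and 8.11 CPM in shDnajb9 livers, against 1.68 and 1.19 CPM in lacZ1 livers, and 10.8 and 11.1 CPM in shRictor livers, against 0.465 and 1.78 CPM in lacZ2 livers. The hairpin libraries were all above the controls (shDnajb9 2.45, adjusted p = 0.00191; shRictor 3.19, adjusted p = 0.000391). Sult1c2, at 1.42 to 3.77 CPM, passed in shDnajb9 (adjusted p = 0.0462) and missed the threshold without any 1 of the 4 libraries compared or shRictor replicate 1, under total-count scaling (adjusted p = 0.173), with the replicate block (adjusted p = 0.0711) and by DESeq2 (adjusted p = 0.0716). The estrogen sulfotransferase Sult1e1 had 0.21 and 1.14 CPM in shDnajb9 livers, against 1.68 and 2.62 CPM in lacZ1 livers, and 0.235 and 0.0978 CPM in shRictor livers, against 3.26 and 0.254 CPM in lacZ2 livers. Both hairpin groups lay below their controls without a call by edgeR (adjusted p = 0.266 in shDnajb9 and 0.0773 in shRictor). In shRictor it was called by DESeq2 (adjusted p = 0.0325) and with the replicate block (adjusted p = 0.0358), at 1 or 2 counts a shRictor library. Sult6b1 passed in neither contrast (-0.28 and -0.66). The 7 hydroxysteroid sulfotransferases Sult2a1 to Sult2a7 and Sult3a1, which in mouse liver are mostly expressed in females, had at most 9 counts in any library. Sult2a7 accounted for that maximum, with 9 and 8 counts in shDnajb9, against 3 and 5 in lacZ1, and 5 and 7 in shRictor, against 1 and 0 in lacZ2. Sult1c1, Sult2b1 and Sult4a1 were not tested either.

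Of the 46 tested members, 17 were called in both contrasts, each in the same direction. Of these, 11 rose in both contrasts (4.16% of all genes), 6 fell in both (6.85%) and 0 changed in opposite directions (0.0581%). The 11 were Gstm7, Gstz1, Sult1a1, Sult1b1, Sult5a1, Ugt1a5, Ugt2a3, Ugt2b1, Ugt2b38, Ugt3a1 and Ugt3a2, and the 6 were Gsta1, Gsta4, Gstm1, Gstm2, Gstm3 and Mgst3. The sign was the same for 37 of 46 members (80.4%) and for 72.4% of all genes. Across members Pearson's r between the log2 fold changes was 0.87 and Spearman's rho 0.81, and across all 13767 genes they were 0.74 and 0.65. The contrasts have separate control libraries but were fitted with 1 shared estimate of the spread, and genes are not independent replicates. The difference between the contrasts was called for 0 members (edgeR, smallest adjusted p = 0.373), with 5 (10.9%) at an unadjusted p under 0.05 and 0 called by DESeq2. Of all genes, 0.00726% were called and 10.9% had an unadjusted p under 0.05, the same share as among the members. The 5 were Gstm2, Gstm5, Gstp2, Ugt1a2 and Ugt1a7c. Between the control groups, lacZ2 minus lacZ1, 0 members were called, with 2 (Sult1a1 and Ugt1a5) at an unadjusted p under 0.05 (4.35%) and 0 by DESeq2. Of all genes, 0 were called and 1.23% had an unadjusted p under 0.05.

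**Figure D4:**
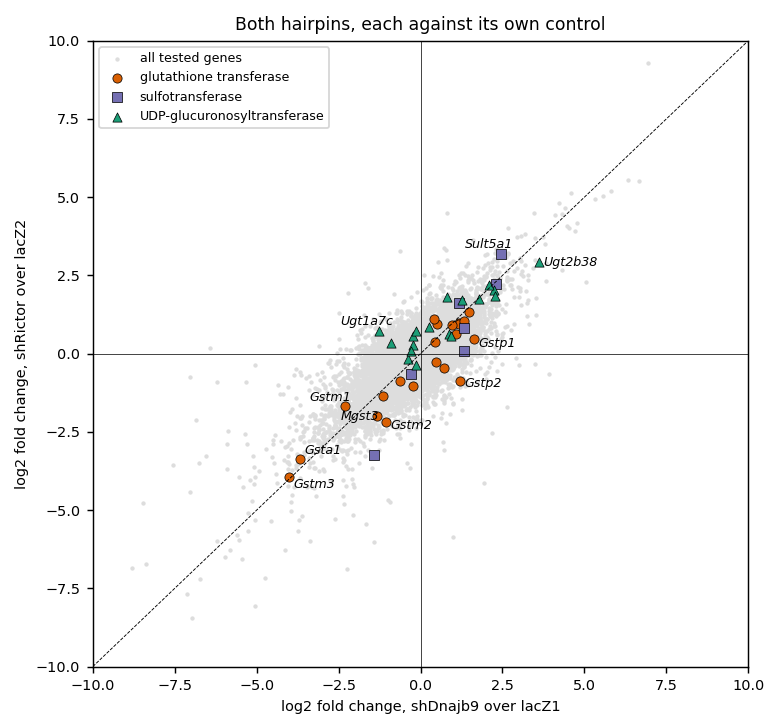
Log2 fold change in shDnajb9 over lacZ1 (x axis) and in shRictor over lacZ2 (y axis) for all 13767 tested genes (grey) and the 46 tested members (orange circles, glutathione transferases; purple squares, sulfotransferases; green triangles, UDP-glucuronosyltransferases; dashed line, equal change). Pearson's r is 0.87 across members and 0.74 across all genes, and the fallers Gstm3 and Gsta1 lie at the lower left.

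Genes that supply the donors were mixed. For this and the later lists, 11.6% of all genes were higher and 12.6% lower in shDnajb9, and 7.31% and 10.9% in shRictor. Several list counts lie near those shares. With total-count scaling, 610 of all 13767 genes were higher and 3354 lower in shDnajb9, and 436 and 2810 in shRictor. Counts over all genes also changed when a library was left out, so such changes in the lists are not particular to them. Of 16 genes of glutathione synthesis and recycling, 3 rose and 3 fell in shDnajb9, and 3 rose and 5 fell in shRictor. The cystine transporter Slc7a11 had 1.05 and 1.6 CPM in shDnajb9 livers, against 47.1 and 60.8 CPM in lacZ1 livers, and 2.12 and 0.88 CPM in shRictor livers, against 119 and 31.8 CPM in lacZ2 livers. It fell furthest of the list (shDnajb9 -5.27, adjusted p = 0.000218; shRictor -5.67, adjusted p = 0.00015). Gclc, the catalytic subunit of the rate-limiting enzyme, had 623 and 543 CPM in shDnajb9 livers, against 1649 and 2244 CPM in lacZ1 livers, and 507 and 589.6 CPM in shRictor livers, against 1851 and 1689.8 CPM in lacZ2 livers, lower in both contrasts (adjusted p = 0.00517 and 0.00649). Cth, which makes cysteine from cystathionine, and the peptidase Lap3 rose in both (Cth 1.30 and 1.40; Lap3 1.64 and 1.21). The 3 higher calls in shDnajb9 were all lost without lacZ1 replicate 1, and the 5 lower calls in shRictor dropped to 1 without shRictor replicate 1, to 1 without shRictor replicate 2, to 2 without lacZ2 replicate 1 and to 3 without lacZ2 replicate 2. Of 7 genes of UDP-glucuronate supply, edgeR called 0 in shDnajb9 and 1 lower in shRictor (Pgm1, -1.21, adjusted p = 0.00532). DESeq2 called 1 lower in shDnajb9 and 2 in shRictor, and total-count scaling 3 lower in each. Of 9 genes of PAPS supply, 2 rose (Suox and Bpnt1) and 1 fell (Slc26a2) in shDnajb9, and 1 rose in shRictor (Papss2, 1.42, adjusted p = 0.00906). The 2 became 0 without either lacZ1 library or shDnajb9 replicate 1 and under total-count scaling, the 1 lower became 0 without lacZ1 replicate 1 or shDnajb9 replicate 1, and the 1 in shRictor ranged from 0 (without lacZ2 replicate 1) to 3 (without lacZ2 replicate 2 or shDnajb9 replicate 2).

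Several exporters of conjugates were lower under both hairpins. Of 10 tested, 4 fell and 0 rose in shDnajb9, and 5 fell and 1 rose (Abcc6) in shRictor. Abcc4, which moves conjugates across the basolateral membrane, had 3.56 and 6.28 CPM in shDnajb9 livers, against 86.3 and 94.2 CPM in lacZ1 livers, and 8.01 and 10.7 CPM in shRictor livers, against 95.1 and 52.2 CPM in lacZ2 livers. All hairpin libraries were far below all controls (shDnajb9 -4.14, adjusted p = 3.81e-05; shRictor -2.97, adjusted p = 0.000151). Abcb1a, Abcc5 and Abcc1 also fell in both contrasts, with log2 fold changes of -3.22, -1.88 and -2.11 in shDnajb9 and -1.96, -1.93 and -1.38 in shRictor. Only 3 fell in shRictor without shRictor replicate 1, and with total-count scaling 7 fell in shDnajb9. Among other conjugating enzymes, 9 of 16 rose in shDnajb9, 6 rose in shRictor and 0 fell in either. Nat8, an N-acetyltransferase that finishes mercapturic acids, had 41.9 and 26.3 CPM in shDnajb9 livers, against 3.19 and 4.05 CPM in lacZ1 livers, and 27.9 and 16.9 CPM in shRictor livers, against 3.72 and 7.19 CPM in lacZ2 livers. It rose in both (adjusted p = 0.000198 and 0.00267), as did the methyltransferases Nnmt (1.95 and 1.59) and Inmt (2.64 and 2.35). The 9 became 3 without lacZ1 replicate 1, 4 without shDnajb9 replicate 1, 6 without lacZ1 replicate 2 and 5 with total-count scaling. The 6 became 3 without lacZ2 replicate 1, 3 without shRictor replicate 1, 4 without shRictor replicate 2 and 3 with total-count scaling. Of 9 deconjugating enzymes 2 rose and 0 fell in each contrast, among them the aminoacylase Acy1 (1.73 and 1.23). The 2 became 1 in shDnajb9 without either lacZ1 library or shDnajb9 replicate 1. In shRictor they became 0 without lacZ2 replicate 1 or shRictor replicate 1, and 1 without shRictor replicate 2 or either lacZ1 library. With total-count scaling 4 were lower in shDnajb9 and 1 was lower in shRictor.

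Among genes that NRF2 induces outside the transferases, 9 of 19 fell and 0 rose in shDnajb9, and likewise 9 fell and 0 rose in shRictor, with a median of -0.66 and -0.65. Cbr3, a carbonyl reductase, had 4.61 and 7.76 CPM in shDnajb9 livers, against 205 and 284 CPM in lacZ1 livers, and 5.42 and 9.88 CPM in shRictor livers, against 328 and 194 CPM in lacZ2 livers. The sulfiredoxin Srxn1 had 141 and 125 CPM in shDnajb9 livers, against 709.6 and 805 CPM in lacZ1 livers, and 81.8 and 103 CPM in shRictor livers, against 857 and 648 CPM in lacZ2 livers. The quinone reductase Nqo1 had 11.7 and 5.82 CPM in shDnajb9 livers, against 32.4 and 61.4 CPM in lacZ1 livers, and 5.65 and 7.53 CPM in shRictor livers, against 40.5 and 40.4 CPM in lacZ2 livers. In all 3 genes every hairpin library was below every control, with adjusted p-values of 3.78e-05, 0.000288 and 0.000793 in shDnajb9 and 4.84e-05, 0.000145 and 0.000582 in shRictor. The peroxidase Gpx2 also fell, to 0.210 and 0.114 CPM in shDnajb9, against 3.46 and 3.34 CPM in lacZ1 livers, and to 0.235 and 0.196 CPM in shRictor, against 4.88 and 3.13 CPM in lacZ2. The NRF2 transcript itself, Nfe2l2, had 37.1 and 57.8 CPM in shDnajb9 livers, against 128 and 132 CPM in lacZ1 livers, and 78.5 and 92.1 CPM in shRictor livers, against 133 and 145 CPM in lacZ2 livers. It passed in shDnajb9 (log2 fold change -1.45, SE 0.26, adjusted p = 0.00245) and not in shRictor (adjusted p = 0.076), and the 2 changes differed by 0.74 (adjusted p = 0.479).

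Of 20 regulators tested, 3 rose and 1 fell in shDnajb9 and 5 rose and 0 fell in shRictor. The nuclear receptor CAR (Nr1i3) had 54.3 and 74 CPM in shDnajb9 livers, against 34.5 and 35.1 CPM in lacZ1 livers, and 123 and 124 CPM in shRictor livers, against 40.8 and 47.7 CPM in lacZ2 livers, higher in both (adjusted p = 0.0174 and 0.00105). The growth hormone receptor Ghr (1.23 and 1.60) and the bile acid receptor Nr1h4 (0.79 and 1.06) also rose in both. The 3 higher calls in shDnajb9 became 0 without either lacZ1 library and 1 with total-count scaling, and the 5 in shRictor became 2 without lacZ2 replicate 1, 3 without shRictor replicate 2 and 2 with total-count scaling. Of 11 targets of CAR and PXR, 1 rose and 3 fell in shDnajb9 and 1 rose and 2 fell in shRictor. The CAR target Cyp2b10 had 1.89 and 1.94 CPM in shDnajb9 livers, against 9.57 and 12.3 CPM in lacZ1 livers, and 9.3 and 8.61 CPM in shRictor livers, against 4.42 and 8.46 CPM in lacZ2 livers, lower in shDnajb9 (adjusted p = 0.000821), while in shRictor both libraries lay just above lacZ2 without a call (adjusted p = 0.364). The changes differed by 2.95 on the log2 scale (unadjusted p = 5.15e-05, adjusted p = 0.163). Of 5 AHR targets, 1 fell in each contrast, Cyp1a1, with 1.05 and 1.71 CPM in shDnajb9 livers, against 5.85 and 8.59 CPM in lacZ1 livers, and 1.65 and 1.27 CPM in shRictor livers, against 10.9 and 6.01 CPM in lacZ2 livers.

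Genes known to be higher in male mouse liver were mostly higher in both contrasts. Of 15 tested, 9 rose and 0 fell in shDnajb9, and 12 rose and 0 fell in shRictor, with a median log2 fold change of 2.10 and 2.06. Hsd3b5, a steroid dehydrogenase, had 474 and 335 CPM in shDnajb9 livers, against 1.86 and 6.32 CPM in lacZ1 livers, and 225 and 86 CPM in shRictor livers, against 0.465 and 5.92 CPM in lacZ2 livers. The anion transporter Slco1a1 had 750.2 and 794 CPM in shDnajb9 livers, against 23.8 and 42.6 CPM in lacZ1 livers, and 537 and 223 CPM in shRictor livers, against 8.37 and 38.2 CPM in lacZ2 livers. Both rose in both contrasts (adjusted p = 0.000265 and 0.000696 for Hsd3b5, 0.000613 and 0.0012 for Slco1a1). Of 9 female-biased genes tested, 0 rose and 3 fell in shDnajb9, and 1 rose and 4 fell in shRictor. Cyp2a4 had 2.52 and 2.28 CPM in shDnajb9 livers, against 78.2 and 189 CPM in lacZ1 livers, and 2.59 and 2.35 CPM in shRictor livers, against 189 and 199 CPM in lacZ2 livers, lower in both (adjusted p = 3.78e-05 and 3.63e-05). The male-biased count in shDnajb9 was 4 without lacZ1 replicate 1, 6 without lacZ1 replicate 2 and 6 without shDnajb9 replicate 1, and the female-biased count in shRictor 1 without lacZ2 replicate 1 or shRictor replicate 1. With total-count scaling the lower counts in shDnajb9 were 7 for these female-biased genes, 7 for the glutathione genes and 6 for the targets of CAR and PXR. Of all 13767 genes, 3354 were then lower in shDnajb9. The Y-linked genes Ddx3y, Eif2s3y, Kdm5d and Uty were present in all 8 libraries, and none of the 4 passed in either contrast.

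Markers of hepatocytes were shifted in the same direction as the higher members. Of 9 tested, 6 rose and 0 fell in shDnajb9, and 5 rose and 0 fell in shRictor, with a median of 1.71 and 1.63. Their summed level was 86055 and 64516 CPM in shDnajb9, against 39815 and 54298.5 CPM in lacZ1 livers, and 63426 and 67593 CPM in shRictor, against 22373 and 42182 CPM in lacZ2. Alb did not pass in either contrast (-0.36 and 0.67). The 6 became 1 without lacZ1 replicate 1 and 2 without lacZ1 replicate 2 or shDnajb9 replicate 1, and the 5 became 2 without lacZ2 replicate 1, 2 without shRictor replicate 1 and 3 without shRictor replicate 2. Pericentral markers, of the zone where many conjugating enzymes are highest, summed to 6013 and 6000.3 CPM in shDnajb9, against 2114 and 2306 CPM in lacZ1 livers, and to 7862 and 6981 CPM in shRictor, against 891 and 2894 CPM in lacZ2, with 3 of 10 higher in shDnajb9 and 5 in shRictor. Periportal markers summed to 10799.7 and 13252.5 CPM in shDnajb9, against 6417 and 7605 CPM in lacZ1 livers, and to 9632 and 13690.4 CPM in shRictor, against 3076 and 5491 CPM in lacZ2, with 3 of 9 higher and 1 lower in shDnajb9 and 5 higher in shRictor. Without lacZ1 replicate 1 the pericentral and periportal higher counts in shDnajb9 were 1 each, and without lacZ2 replicate 1 those in shRictor were 2 each. None of these lists has a marker at 0 in all libraries. The part of these shifts in the members' values was not tested.

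Markers of other cell types were present at lower levels than those of hepatocytes. Of all genes, 12.6% were lower in shDnajb9 and 10.9% in shRictor. Cholangiocyte markers summed to 36.7 and 66.8 CPM in shDnajb9, against 105 and 105 CPM in lacZ1 livers, and to 53.7 and 76.2 CPM in shRictor, against 76.5 and 123 CPM in lacZ2, with 2 of 8 lower in shDnajb9 and 1 in shRictor. Kupffer cell and macrophage markers fell for 2 of 8 in shDnajb9 and 4 in shRictor and summed to 769 and 903 CPM in shRictor, against 1317 and 1453 CPM in lacZ2, and to 1131 and 1278.5 CPM in shDnajb9, against 1299.7 and 1515 CPM in lacZ1. Neutrophil markers fell for 4 of 5 in shDnajb9 and 1 in shRictor, and summed to 1.05 and 1.03 CPM in shDnajb9, against 25.7 and 6.32 CPM in lacZ1. In shRictor they summed to 1.77 and 4.79 CPM, against 14.4 and 4.06 CPM in lacZ2, so these groups overlapped. Lymphocyte markers fell for 1 of 9 in shDnajb9, about the share of all genes, and for 3 in shRictor. They summed to 23.9 and 33.5 CPM in shDnajb9, against 45.0 and 38.8 CPM in lacZ1 livers, and to 22.5 and 24.5 CPM in shRictor, against 39.5 and 56.7 CPM in lacZ2. The 1 became 0 without lacZ1 replicate 1 or shDnajb9 replicate 1, and the 3 became 0 without lacZ2 replicate 2 and 1 without either shRictor library. Without both libraries that stand apart the counts were 0 and 5. Endothelial markers had 1 higher and stellate markers 2 higher and 3 lower in shDnajb9, of 10 each. In shRictor 0 endothelial markers were called, and 1 stellate marker was higher and 1 lower. The neutrophil count in shDnajb9 became 0 without lacZ1 replicate 1 or either shDnajb9 library, and the macrophage count in shRictor 1 without either lacZ2 library or shRictor replicate 1 and 0 without shRictor replicate 2. The part of these cells in the members' values was not tested.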

How the data were processed

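Liver RNA-seq of 8 libraries in 4 groups was analysed from the gene counts the authors deposited, which are raw HTSeq counts on mm10 after cutadapt trimming, per the submitters' processing notes. The aligner, the annotation, the strand setting and tool versions are not given in the sources used here. The closing HTSeq classes of each table were left out of library sizes, and reads without a unique alignment made up 22.9% to 42.0% of reads. All 4 group means were fitted together with edgeR 4.0.16 (R 4.3.3; TMM scaling, filterByExpr at a minimum count of 10, robust quasi-likelihood F test, Benjamini-Hochberg adjustment, called at an adjusted p under 0.05). Of 24062 entries, 13767 were tested. The fit had 4 residual degrees of freedom and a common biological coefficient of variation of 0.209. An exact permutation test of 2 against 2 libraries cannot go below p = 0.333, so no such test is given. Contrasts were shDnajb9 minus lacZ1, shRictor minus lacZ2, their difference and lacZ2 minus lacZ1. Alternatives used DESeq2 1.42.0, other scalings and filters, a replicate block and each library left out. Levels per kb used the merged length of all annotated exons of a gene, less bases that exons of other genes overlap. These lengths, and the 50-base stretches of shared sequence, were from GENCODE M21 (GRCm38). All members were counted. Those given in full were, for each family, the 3 tested members with the smallest p in each of the 2 knockdown contrasts and the one with the highest mean CPM, plus any called in the difference or in opposite directions, and for each pathway list up to 4 genes with the smallest p. Members named outside this rule, and other list or marker genes, were picked with their values in view. The members and lists were chosen with earlier results of these data known. The edgeR script was checked on simulated counts.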

Additional observations from a re-analysis of the deposited data

How the results depend on the processing

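With 2 libraries a group and reads that are not independent molecules, the precision of every call is limited by the spread between libraries. Of the counts of members recomputed under the alternatives, 100 stayed within 1.5 times the reported count and 9 did not. Many of the 100 had little room to move. They include counts of 0 in the difference and between the controls, and fits that left out a library of the other contrast. The tally is therefore no measure of stability. Scaling by total count gave 10 higher in shDnajb9 (18 reported), where the count over all genes was 610 (1597 reported). No low-count filter gave 19 higher in shRictor (12 reported) and 2 members called in the difference of the contrasts (0 reported), Gstp2 and Ugt1a7c. With 1 library left out, the higher count ran from 4 (without lacZ1 replicate 1) to 18 in shDnajb9 and from 6 (without lacZ2 replicate 1) to 17 in shRictor. The lower count then ran from 4 to 7 in shDnajb9 and from 4 (without shRictor replicate 1) to 8 in shRictor.

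In a tally that likewise includes fits without a library of the other contrast, 893 values of single named members kept their direction and side of the threshold. Of the rest, 85 lost their call, 36 gained one and 7 changed sign. Under total-count scaling these were Gsto1 in shDnajb9 (-8.97e-05) and Ugt1a2 in shRictor (-0.059). The other 5 came from leaving out 1 library. Over the libraries left out in turn, the log2 fold change in shRictor ran from -0.39 (without shRictor replicate 2) to 0.82 (without shRictor replicate 1) for Ugt1a2 and from -0.38 to 1.33, at the same libraries, for Ugt1a7c. For Ugt2b34 in shRictor it ran from -0.47 (without lacZ2 replicate 1) to 0.23 (without lacZ2 replicate 2). For Ugt1a9 in shDnajb9 it ran from -0.66 (without shDnajb9 replicate 1) to 0.24 (without shDnajb9 replicate 2), with 0.13 without lacZ1 replicate 2. None of these was called in the reported fit, and the cause was not tested.

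Replicate numbers are shared between groups but are not stated to pair the samples, and the deviations of same-numbered libraries correlated at -0.30, -0.03 and 0.20. With the replicate number as a block, 14 members were higher and 6 lower in shDnajb9, and 9 higher and 8 lower in shRictor, with 0 called in the difference and 0 between the controls. The crossed pairing of shDnajb9 and lacZ1 gave 20 higher and 8 lower. Chosen after seeing the data, leaving out both libraries that stand apart gave 13 higher and 6 lower in shDnajb9 and 8 and 7 in shRictor, and counting only members with under 20% shared sequence gave 15 and 4 in shDnajb9 and 10 and 5 in shRictor. DESeq2 called 20 higher and 6 lower in shDnajb9, and 14 and 8 in shRictor.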
